A study of Mus musculus with 16 samples.

Results

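The genes described here are the heat shock proteins and co-chaperones of the mouse dorsal raphe nucleus, a midbrain nucleus rich in the serotonin neurons that innervate the forebrain. They were taken by symbol, as every gene of the table whose name begins with Hsp and a family letter or number, with Dnaja, Dnajb or Dnajc, with Cct, or with Bag, leaving out the cytosolic HSP90 genes Hsp90aa1 and Hsp90ab1. The rule gave 73 genes of the 14504 in the table. No measured value entered the rule, but it was set with earlier results of these data known.

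Male C57BL/6 mice, aged 10 to 12 weeks, either served as controls or went through chronic social defeat stress (CSDS) for 30 days, in which a mouse is defeated repeatedly by an aggressive CD1 resident. The defeated mice had been divided by clustering of their behaviour in non-aggressive contact into a passive coping strategy (PS) and an active coping strategy (AS). All mice, controls included, received 1 injection, 24 h after the last defeat in the stressed mice, of saline or of dexamethasone (DEX, an artificial steroid agonist of the glucocorticoid receptor) at 2 mg/kg, and punches of the nucleus were taken 6 h later for polyA RNA sequencing. The groups used were control saline (n = 3 libraries), control DEX (n = 3), PS saline (n = 2), PS DEX (n = 3), AS saline (n = 3) and AS DEX (n = 2), each library from a different mouse. Control mice had been kept singly only for the last days before the experiment, so singly and sensory-contact housing differ together with the defeat. In its quality control the study removed DRN samples of low Tph2 from the DEX-treated PS and AS mice, so Tph2 bore on which mice remained in those groups.

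Heat shock proteins are molecular chaperones, which bind unfolded or aggregating proteins. HSP70 proteins hold and release clients in cycles of ATP hydrolysis, J proteins (the Dnaj genes) bring clients to HSP70 and stimulate its ATPase, and nucleotide exchange factors (the Bag genes, Hspbp1 and the HSP110 proteins) let the client go. The chaperonin CCT folds actin and tubulin in a closed chamber, HSP60 and HSP10 do the like in mitochondria, and small heat shock proteins hold clients without ATP. Some of these genes are expressed constantly, while others are induced by heat shock factor 1 (HSF1) when unfolded proteins accumulate, through heat shock elements in their promoters. The glucocorticoid receptor itself is a client of HSP70, HSP90 and their co-chaperones.

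Libraries held between 38207157 and 62447298 reads in the listed genes, and the members took 0.866% to 1.17% of them. Of the 73 members, 72 had at least 10 reads in every library, the exception being Dnajb13. The serotonin neuron gene Tph2 was high in every library, between 91760 and 182200 normalized reads. Control libraries are named by their label, such as con_sal_104 for saline and con_dex_101 for DEX, and those of stressed mice by phenotype, treatment and mouse number. AS saline library 40 stood apart: its 80 cytosolic ribosomal protein genes lay on average 0.83 log2 units above the mean library, against a range from -0.26 to 0.36 in the other 15, and the effects it moved most are also given without it.

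Promoter sequences were searched for motifs of HSF1, the glucocorticoid receptor and the unfolded protein response of the endoplasmic reticulum (ER). Only exact matches were counted, so a promoter without a match may still hold a variant site. RefSeq promoter windows (build GRCm38.p6) matched 62 of the 73 members, and the 250 bases before each gene's RefSeq start were searched on both strands. A heat shock element of 2 units, written GAANNTTC or TTCNNGAA, lay in 15 of the 62 windows (24.2%), against 14.5% of 27025 genes, and in 8 of the 12 windows of the heat-inducible members. An element of 3 units (GAA, TTC and GAA with 2 bases of any kind between neighbours, or its reverse complement, each of which contains both 2-unit motifs) lay in 3 windows, those of Hspd1, Hspe1 and Dnajb6 (4.84%, against 0.514% of all genes). The ER stress element, which is CCAAT and CCACG with 9 bases of any kind between them, lay in the windows of Hspa5, Hsp90b1 and Dnajc3 (4.84%, against 0.13%). The palindromic glucocorticoid response element, GNACA and TGTNC with 3 bases of any kind between them, lay in 0 of the 62 windows and in 0.44% of all genes. At so low a share, 0 of 62 carries no information on the members.

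The 2 J protein genes that passed the test for DEX are shown first. The stretch before Dnajb2 is chr1:75236173-75236405, plus strand, and that before Dnajc1 is chr2:18392831-18393080, minus strand, and neither window held any of the motifs searched, so no letter is in capitals.
Dnajb2: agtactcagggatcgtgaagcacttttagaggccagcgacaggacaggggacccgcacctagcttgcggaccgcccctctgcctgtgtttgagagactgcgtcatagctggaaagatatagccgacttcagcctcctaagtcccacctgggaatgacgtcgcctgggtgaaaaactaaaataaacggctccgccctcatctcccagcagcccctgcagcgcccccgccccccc
Dnajc1: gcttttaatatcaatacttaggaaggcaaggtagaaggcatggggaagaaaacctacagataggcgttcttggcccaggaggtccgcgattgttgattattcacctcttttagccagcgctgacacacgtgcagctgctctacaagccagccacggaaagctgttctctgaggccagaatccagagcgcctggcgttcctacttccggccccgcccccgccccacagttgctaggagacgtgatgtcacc

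The classical stress-inducible HSP70 genes, Hspa1a (chr17:34972157-34972406, minus strand) and Hspa1b (chr17:34959239-34959488, minus strand), are shown because they are near copies: their windows differ at 3 of 250 positions. Capitals mark the 2-unit heat shock element that both hold.
Hspa1a: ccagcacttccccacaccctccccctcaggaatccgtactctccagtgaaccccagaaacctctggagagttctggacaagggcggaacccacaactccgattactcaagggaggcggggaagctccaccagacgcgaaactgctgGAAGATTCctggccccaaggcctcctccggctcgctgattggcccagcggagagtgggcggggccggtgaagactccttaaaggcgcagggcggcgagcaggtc
Hspa1b: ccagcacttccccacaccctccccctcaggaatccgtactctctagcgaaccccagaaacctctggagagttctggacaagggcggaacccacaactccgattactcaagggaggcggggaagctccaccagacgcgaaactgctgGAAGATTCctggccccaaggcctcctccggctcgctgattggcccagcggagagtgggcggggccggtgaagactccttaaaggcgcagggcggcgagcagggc

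Short windows around the longer elements show the stretch between the RefSeq starts of the head-to-head genes of HSP60 and HSP10. Overlapping elements there face both genes. The ER stress elements of the ER chaperones are shown as well. In the GENCODE annotation Hspd1, Dnajb6 and Hspa5 begin further upstream, so their windows lie inside the annotated genes. Capitals mark 1 element in each window. The Hspd1 stretch holds a second, overlapping 3-unit element that runs into the lower-case bases before the capitals, and the Hsp90b1 promoter holds another ER stress element that is not shown. The windows are chr1:55088054-55088076 (Hspd1, minus strand), chr5:29735847-29735869 (Dnajb6, plus strand), chr2:34772020-34772048 (Hspa5, plus strand), chr10:86705633-86705661 (Hsp90b1, minus strand) and chr14:118937822-118937850 (Dnajc3, plus strand).
Hspd1: ttccgGAAGGTTCTAGAAcggac
Dnajb6: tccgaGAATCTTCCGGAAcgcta
Hspa5: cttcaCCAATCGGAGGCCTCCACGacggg
Hsp90b1: caagcCCAATCGCAAGGAGCCACGcttcg
Dnajc3: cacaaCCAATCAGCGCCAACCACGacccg

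Levels were compared between genes as normalized reads per kb of exon, averaged over the 16 libraries. The length counted every base in an annotated exon of any transcript of the gene, so ranks between genes also depend on annotation. The constitutive HSP70 gene Hspa8 stood far above the other members at 19470 reads per kb and made 19.1% of the members' sum. The stress-inducible HSP70 genes lay at the other end, with 89.2 reads per kb for Hspa1a and 40.4 for Hspa1b, which was the lowest member. Hspa8 thus lay 218-fold above Hspa1a. Reads that match both Hspa1a and Hspa1b leave this ratio and the lowest rank uncertain. The median member had 664 reads per kb, against 262 for all genes.

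**Figure D1:**
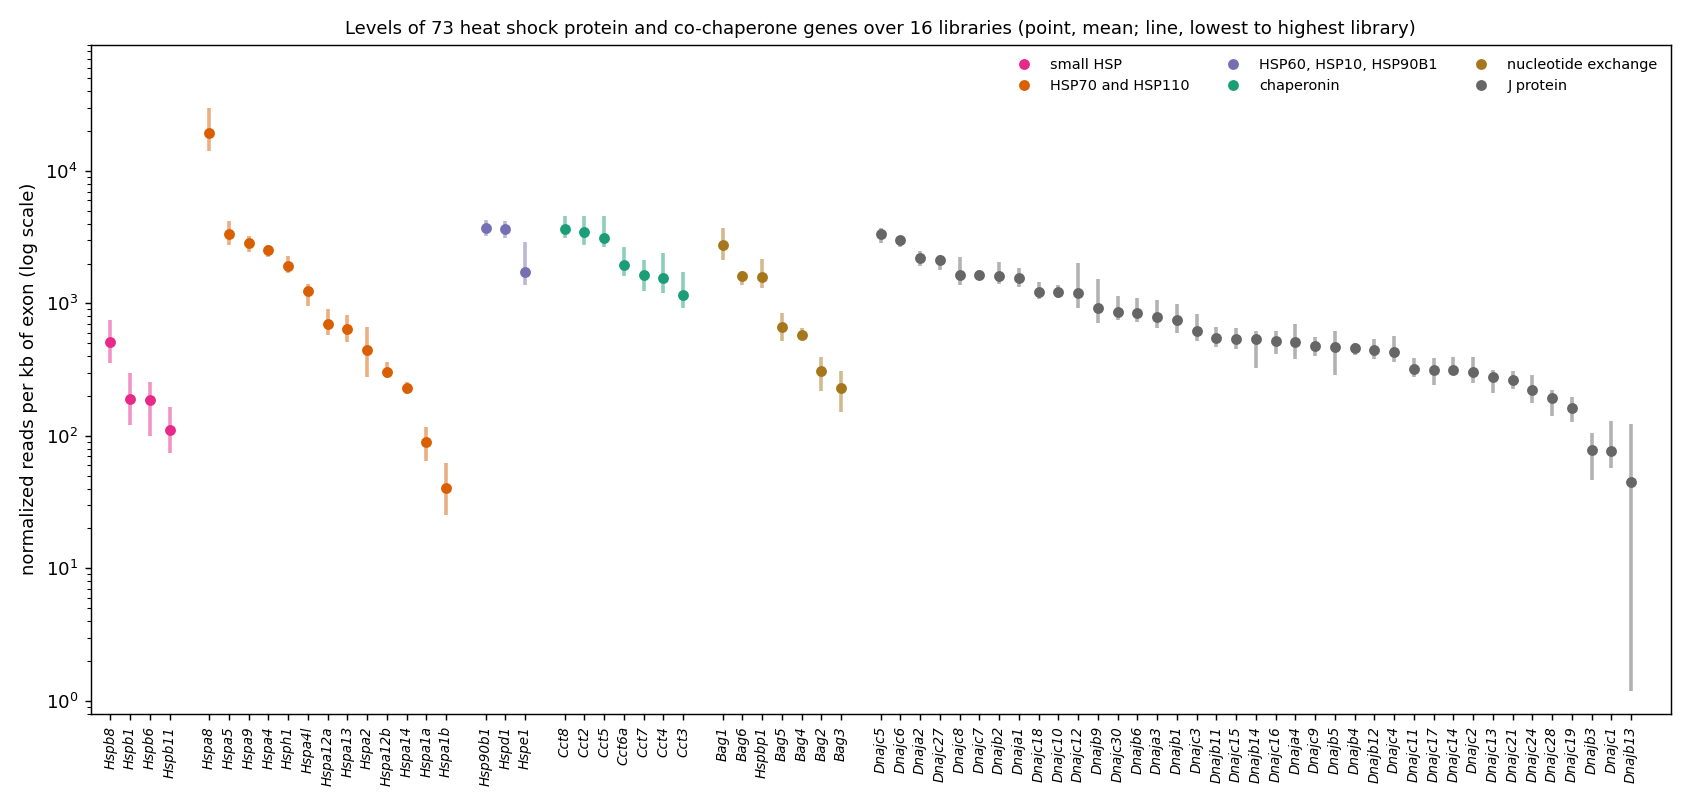
Levels of the 73 members in normalized reads per kb of exon on a log scale, grouped by class (the point is the mean and the line runs from the lowest to the highest of 16 libraries). Hspa8 has 19470 reads per kb, the chaperonin genes lie between 1154 and 3644, and Dnajb13 has the longest line.

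Below Hspa8 came a group of members between about the levels of Hsp90b1 (3725 reads per kb), the ER form of HSP90, and Hspa9 (2844), the mitochondrial HSP70. Hspd1 (HSP60) had 3651 reads per kb, Cct8 had 3644, Cct2 had 3437, and Hspa5, the ER HSP70 known as BiP, had 3360. The 2 highest J protein genes were Dnajc5 (3321), which encodes cysteine string protein of synaptic vesicles, and Dnajc6 (3027), which encodes auxilin, the J protein that uncoats clathrin vesicles. The lowest were Dnajb13 (44.9), a gene of the ciliary axoneme, and Dnajc1 (76.6), an ER membrane J protein that binds BiP.

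Within the other classes the order was as follows. Bag1 was the highest nucleotide exchange gene at 2743 reads per kb and Bag3, which with Hspb8 takes part in selective autophagy, was the lowest at 230. Among the genes placed with the small heat shock proteins by symbol alone, Hspb8 had 509, Hspb1 (HSP27) 190 and Hspb11 110 reads per kb. The 7 measured chaperonin genes spanned a 3.16-fold range from Cct3 (1154) to Cct8, and the remaining subunit gene Tcp1, outside the rule, lay inside that range at 2127. This range depends on the lengths used, since Cct3 has 6370 annotated exon bases and Cct8 has 3088. Hspd1 had 2.1 times the level of Hspe1 (HSP10, 1736) and lay above it in the mean of every group. The lengths used were 2642 exon bases for Hspd1 and 1474 for Hspe1. Dnajc19, which belongs to the mitochondrial import motor, was the lowest mitochondrial member at 161.

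Members varied little between libraries of a group. Their median within-group standard deviation was 0.162 log2 units, against 0.207 for all genes. Their median level was also higher (664 against 262 reads per kb), and spread was not compared at equal levels. The steadiest were Dnajc7 (0.0650), Hspa4 (0.0726) and Dnajc6 (0.0731). The widest was Dnajb13 (1.77), followed by the testis-enriched HSP70 gene Hspa2 (0.489), Hspb6 (0.387), Dnajc12 (0.330), Hspb1 (0.327) and Hspa1b (0.320).

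Counting limits touch several members. Of the 73, 28 share exon bases with another gene, 8 of them over at least 10% of their exons, and whether strand was used in counting is not given in the sources used here. Hspa1a and Hspa1b share 47.1% of the 100-base windows of the Hspa1a transcript exactly, so the way reads were split between them is uncertain. Whether reads that match both were counted at all is not given either, so both levels may be too low. Pseudogenes with the parent's name are annotated for Hspe1 (6), Hspd1 (5), Dnaja1, Cct3, Dnajc19 and Hspa9 (1 each).

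The main question was how DEX altered these genes, and the effect averaged over control, PS and AS mice had the most precision. Dnajb2 fell and Dnajc1 rose, and the other 71 members did not pass the test. These 2 of 73 stand beside 4.31% of all 14504 genes called in the same comparison (limma, adjusted p under 0.1), of which 2.78% were higher and 1.53% lower, so the members' share was not above the background. Both called genes encode J proteins: Dnajb2 (HSJ1), rich in neurons, hands ubiquitinated clients to the proteasome, and Dnajc1 sits in the ER membrane.

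Dnajb2 (ENSMUSG00000026203.16, protein coding, GRCm38 chromosome 1, 75236406 to 75245692) had 7667, 8725 and 7109 normalized reads in the control saline libraries and 6679, 6159 and 6195 in the control DEX libraries. PS saline libraries had 7095 and 6714, and PS DEX libraries 5976, 6192 and 6143. AS saline libraries had 7537, 7107 and 7313, and AS DEX libraries 6773 and 6111. Within each phenotype every DEX library lay below every saline library, which held for 1 member and for 0.862% of all genes, and across phenotypes only AS DEX library 38 lay above a saline library, PS saline 68. The averaged effect was -0.22 on the log2 scale (SE 0.05, 1.17-fold lower, limma adjusted p = 0.0342).

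The Dnajb2 effect was -0.30 in control, -0.18 in PS and -0.19 in AS mice, and none of these passed alone (limma adjusted p = 0.169 in control mice). Over 25 alternative settings the averaged effect lay between -0.25 and -0.19 and was called in 23. It was lost without PS saline library 62 (limma adjusted p = 0.123) and without AS DEX library 42 (0.176). No other gene shares exon bases with Dnajb2.

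Dnajc1 (ENSMUSG00000026740.12, protein coding, GRCm38 chromosome 2, 18195654 to 18392830) had 785, 666 and 810 normalized reads in control saline and 938, 855 and 1032 in control DEX libraries. PS saline libraries had 773 and 819, and PS DEX libraries 867, 972 and 1503. AS saline libraries had 803, 683 and 756, and AS DEX libraries 1029 and 984. All 8 DEX libraries lay above all 8 saline libraries, which was true of 1 member and of 1.37% of all genes. Asked only within each phenotype, this held for 1.9% of all genes and again for 1 member. The averaged effect was 0.40 (SE 0.11, 1.32-fold higher, limma adjusted p = 0.0620).

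The Dnajc1 effect was 0.32 in control, 0.44 in PS and 0.43 in AS mice. PS DEX library 64 was the highest by far, and without it the averaged effect was 0.32 (limma adjusted p = 0.0404). The call was the less steady of the pair, kept in 16 of 25 alternatives. It was lost when con_sal_104 (limma adjusted p = 0.115), con_dex_101 (0.113), con_dex_122 (0.143), PS saline 62 (0.170), PS saline 68 (0.148), AS saline 14 (0.122), AS DEX 38 (0.159) or AS DEX 42 (0.163) was left out, with an effect between 0.37 and 0.41 each time. Of its 11651 exon bases 749 (6.43%) overlap exons of Mllt10 on the opposite strand, and Mllt10 had an averaged effect of 0.13 (SE 0.09, limma adjusted p = 0.513).

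**Figure D2:**
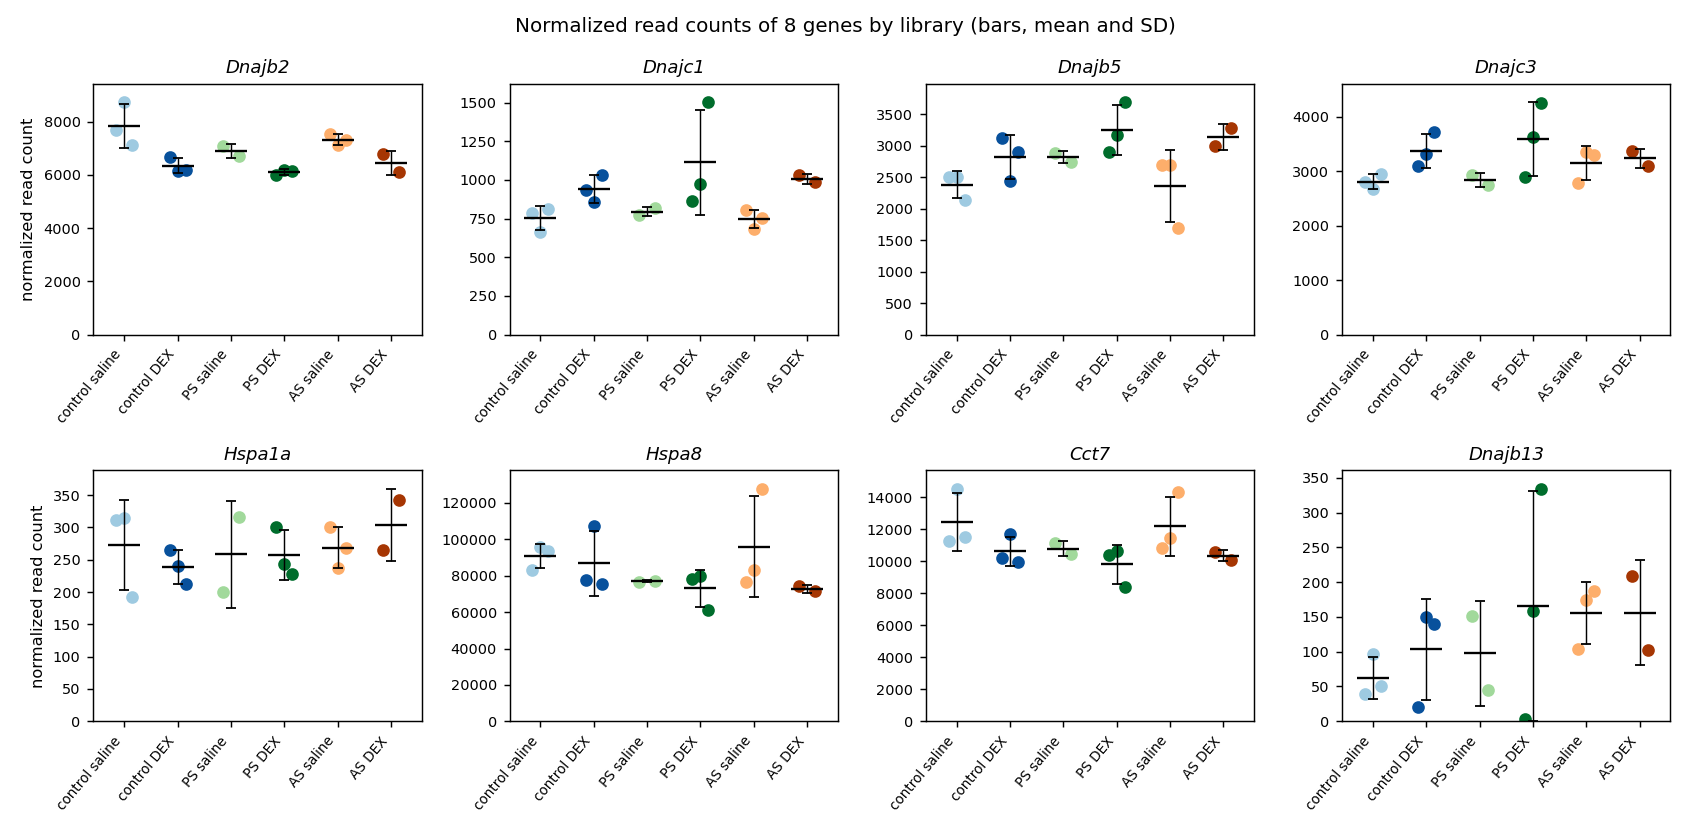
Normalized read counts of 8 members in each of the 16 libraries by group (points, libraries; bars, group mean and SD). Dnajb2 is lower and Dnajc1 higher in DEX than in saline libraries of every phenotype, Hspa8 is high in single AS saline and control DEX libraries, and Dnajb13 spreads from 3.26 to 334.

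Some markers of microglia, myelin, and endothelial and mural cells moved with DEX as well. Of 6 microglia markers all lay below 0 and 3 fell (median -0.39), of 8 myelin markers 3 fell and of 9 endothelial and mural markers 1 fell. In the averaged DEX comparison 1.53% of all genes were called lower. Summed microglia markers ran from 4176 to 4483 normalized reads in control saline and 3295 to 3558 in control DEX libraries, from 4017 to 4183 and 3311 to 3391 in PS, and from 4132 to 5436 and 3517 to 3928 in AS, and no marker of the 3 lists was at 0. Their part in the Dnajb2 and Dnajc1 results was not tested, except that with the endothelial and mural score as a covariate Dnajb2 had an effect of -0.23 (limma adjusted p = 0.0906) and Dnajc1 one of 0.38 (0.207, no longer called). The punches hold many cell types, and fewer cells of a type and less RNA per cell cannot be told apart.

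Effects of the remaining members were small. The 95% confidence interval of the averaged effect lay within 0.5 log2 units of 0 for 66 of the 73 members and within 1 unit for 72, Dnajb13 being the exception. The median effect was -0.07, against -0.00 for all genes, and 54 members (74.0%) lay below 0, against 50.6% of all genes. Leaving out 1 library at a time moved the members' median between -0.08 and -0.04 and the number below 0 between 48 and 56. At an unadjusted p under 0.05 there were 7 members (9.59%), against 14.02% of all genes.

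**Figure D3:**
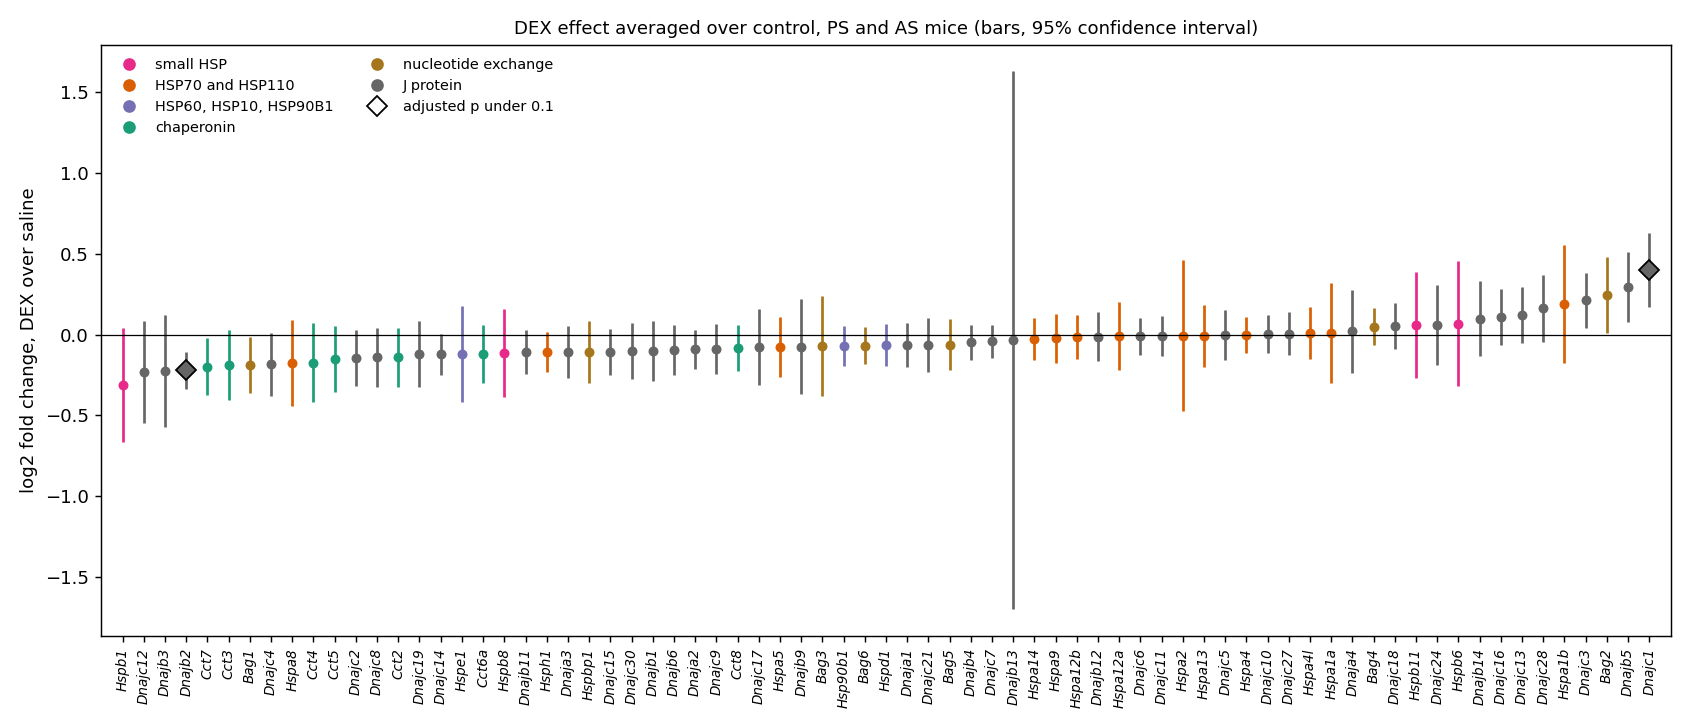
Averaged DEX effect on each of the 73 members as log2 fold change over saline, sorted, with 95% confidence intervals (diamonds, adjusted p under 0.1). Dnajb2 at -0.22 and Dnajc1 at 0.40 are the only diamonds, and 54 of the 73 effects lie below 0.

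The heat-inducible members, those that HSF1 raises in a heat shock response, were not called. Of the 13, 10 lay below 0 and the median averaged effect was -0.07. Hspa1a had 312, 315 and 192 normalized reads in control saline and 265, 240 and 212 in control DEX libraries, 200 and 317 in PS saline and 301, 243 and 227 in PS DEX, and 301, 237 and 268 in AS saline and 265 and 343 in AS DEX libraries. Saline and DEX libraries overlapped in every phenotype, and the averaged effect was 0.01 with an interval from -0.30 to 0.32, its sign turning under several alternatives. Hspa1b had an averaged effect of 0.19 (-0.17 to 0.55), and its values ran from 71.1 to 176 normalized reads over the 16 libraries.

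The other inducible members had narrower intervals. The averaged effect was -0.10 for Dnajb1 (-0.28 to 0.09), the J protein partner of inducible HSP70, and -0.05 without AS saline library 40. It was -0.11 for Hsph1 (-0.23 to 0.01), the HSP110 exchange factor. It was -0.07 for Bag3 (-0.38 to 0.24), whose sign turned with the endothelial and mural covariate. Hspb1 had the lowest averaged effect of any member, -0.31 (-0.66 to 0.04, limma adjusted p = 0.414), with saline libraries from 126 to 306 and DEX libraries from 129 to 228 normalized reads.

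Hspa8 was the highest member per kb. It had 83400, 95560 and 93600 normalized reads in control saline and 77840, 107300 and 75460 in control DEX libraries. PS saline libraries had 76770 and 77320, and PS DEX libraries 78040, 80050 and 61340. AS saline libraries had 76810, 83200 and 127700, and AS DEX libraries 74150 and 71360. Single libraries were high in the control DEX and AS saline groups, and the averaged effect was -0.18 with an interval from -0.44 to 0.09, and -0.10 without AS saline library 40.

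Mitochondrial members lay below 0 in 9 of 10 cases, with a median averaged effect of -0.10 and no call. The effect was -0.02 for Hspa9 (-0.18 to 0.13), -0.07 for Hspd1 (-0.20 to 0.06) and -0.12 for Hspe1 (-0.42 to 0.18). The first changed sign when a single library was left out, and the last with library weights. Hspe1 was highest in AS saline library 40, at 4282 normalized reads, against 2044 to 3228 elsewhere, and without that library its averaged effect was -0.03.

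ER members were split, with 6 of 12 above 0 and a median of -0.00. Hspa5 had an averaged effect of -0.08 (-0.26 to 0.11, and -0.04 without AS saline library 40) and Hsp90b1 one of -0.07 (-0.19 to 0.05), and both hold ER stress elements. Dnajc3, the third member with that element and a partner of BiP that also inhibits the kinase PERK, had 0.21 (0.04 to 0.38), which did not pass after adjustment over all genes (limma adjusted p = 0.236). Outside the members, Xbp1, the transcription factor of the unfolded protein response, fell by 0.42 (SE 0.08, limma adjusted p = 0.00705), from 4473 to 6383 normalized reads in saline libraries to 3520 to 4070 in DEX libraries. It was the only gene of the 20 on the unfolded protein response list to be called, beside 4.31% of all genes. Xbp1 was called in all 25 alternatives, and 13 of the 20 lay below 0.

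Of the J proteins, 27 of 39 lay below 0. After the called pair the smallest unadjusted p belonged to Dnajb5, with an averaged effect of 0.29 (0.07 to 0.51, limma adjusted p = 0.188). It ranged from 1701 to 2891 normalized reads in saline and from 2437 to 3692 in DEX libraries, and these overlapped. Dnajc5 had -0.00 (-0.16 to 0.15), with a sign that turned under several alternatives. Dnajc12, chosen after its values were seen because its protein assists the aromatic amino acid hydroxylases, tryptophan hydroxylase among them, had -0.23 (-0.55 to 0.08, limma adjusted p = 0.486), and -0.13 without AS saline library 40.

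The chaperonin genes lay below 0 together, 7 of 7, with averaged effects from -0.20 (Cct7) to -0.09 (Cct8), a median of -0.15 and no call. Cct7 had the lowest adjusted p of them (limma, 0.299) and Cct2 had -0.14 (-0.32 to 0.04). In the AS mice the median was -0.27, and -0.10 without AS saline library 40. In the PS mice it was -0.05, with 7 of 7 below 0, but 0.02 with 3 of 7 below 0 when PS DEX library 64 was left out. In the control mice it was -0.12, and -0.04 without con_sal_104. TMM scaling kept the averaged median at -0.15 with 7 of 7 below 0.

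The chaperonin genes and the ribosomal protein and proteasome genes were high in the same libraries. The mean chaperonin score, the average log2 difference from the mean library, was 0.49 in AS saline 40, 0.27 in con_sal_104, 0.20 in con_dex_116 and 0.16 in con_sal_114, and at most 0.01 elsewhere. Those were also the 4 libraries with the highest ribosomal protein scores (0.83, 0.33, 0.26 and 0.36) and the highest proteasome scores (0.46, 0.26, 0.16 and 0.23). Averaged over phenotypes, all 80 ribosomal protein genes lay below 0 under DEX (median -0.18, 0 called) and so did 33 of 36 proteasome genes (median -0.13, 0 called). The part of these libraries in the chaperonin values, other than by leaving each out, was not tested.

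**Figure D4:**
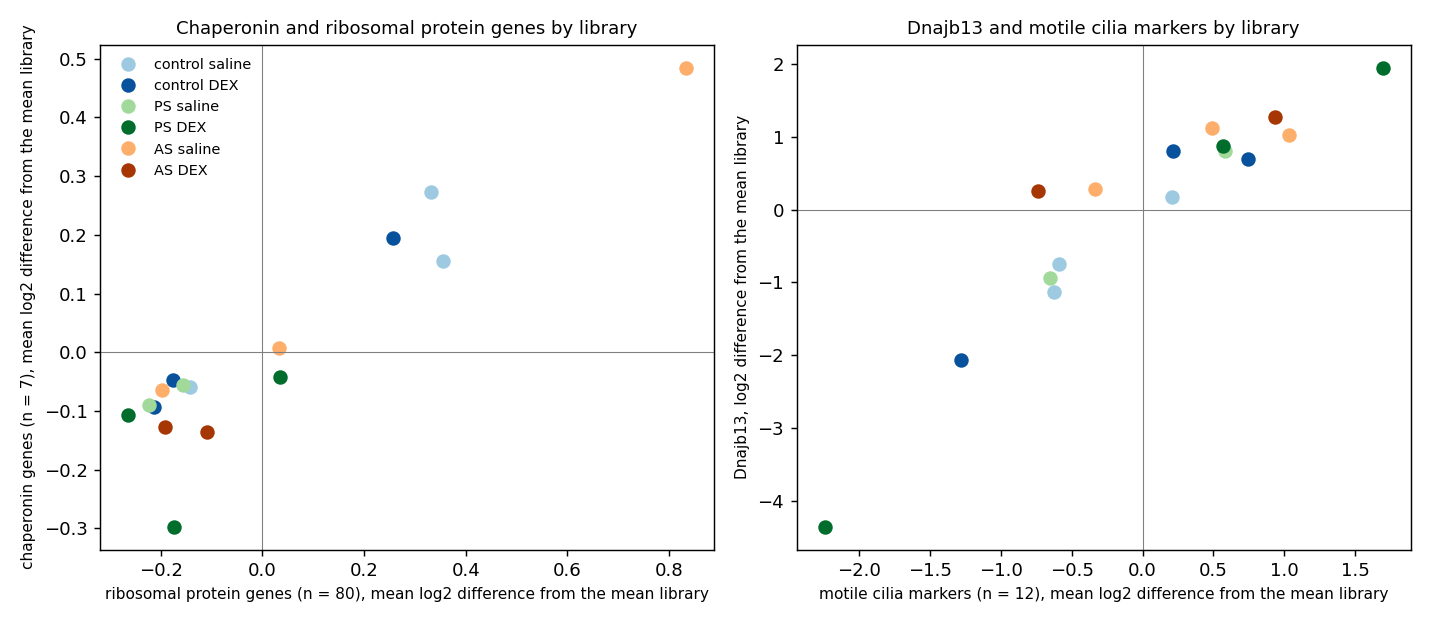
Each point is 1 of 16 libraries, colored by group, in log2 units from the mean library: chaperonin against ribosomal protein genes (left) and Dnajb13 against motile cilia markers (right). AS saline library 40 lies at the upper right of the left panel (0.83 and 0.49), and Dnajb13 runs from -4.35 to 1.95 on the right.

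Nucleotide exchange genes were 5 of 7 below 0. Bag1 had an averaged effect of -0.19 (-0.36 to -0.02, limma adjusted p = 0.309) and Bag2, which inhibits the ubiquitin ligase CHIP, one of 0.24 (0.01 to 0.48, limma adjusted p = 0.339). Of the genes placed with the small heat shock proteins by symbol, 2 of 4 lay below 0. Hspb8 had -0.11 (-0.39 to 0.16), and -0.07 without AS saline library 40.

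Dnajb13 had 38.6, 96.7 and 50.7 normalized reads in control saline and 19.8, 150 and 139 in control DEX libraries. PS saline libraries had 151 and 44.3, and PS DEX libraries 3.26, 158 and 334. AS saline libraries had 104.1, 174.7 and 186.7, and AS DEX libraries 209.1 and 102.3. The Dnajb13 effect was 1.37 in AS against control mice under saline, the largest of any member in that comparison, and was not called. Without AS saline library 40 it was 1.22. The lowest and the highest library were also those with the lowest and highest motile cilia marker score (-2.25 and 1.70, 12 markers of ependymal cells), and the averaged effect of -0.03 had an interval from -1.69 to 1.62 and was 0.61 when PS DEX library 6 was left out.

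Of 14 genes that work with HSP90, 1 rose and 1 fell under DEX, beside 2.78% of all genes called higher and 1.53% called lower. Fkbp5, an immunophilin that holds the glucocorticoid receptor in a state of low affinity, rose from 1241 to 1536 normalized reads in saline libraries to 5578 to 6958 in DEX libraries (2.15 on the log2 scale, SE 0.06, limma adjusted p = 7.7e-11). Its counterpart Fkbp4 fell by 0.29 (SE 0.09, limma adjusted p = 0.0985), a call kept in 10 of 25 alternatives. The other 12 genes on the HSP90 list were not called, and 10 of all 14 lay below 0. No gene was called among 3 measured heat shock factors, 7 genes of prefoldin and Tcp1, the crystallin gene Cryab, 2 cold-inducible genes or 5 genes of mitochondrial import and folding, which limma left at adjusted p values of at least 0.127.

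Within single phenotypes the limma test called 0 members under DEX. In control mice 1.26% of all genes were called, 1% higher and 0.262% lower. Here 1 member (1.37%) had an unadjusted p under 0.05, against 12.13% of all genes. Among members edgeR called 0 and DESeq2 called 1, Dnajb2 (-0.30, DESeq2 adjusted p = 0.0376), as did limma when con_sal_114 was left out. Of all genes edgeR called 1.24% and DESeq2 called 3.07%. After Dnajb2 the smallest p belonged to Dnajc3 (0.26), Bag1 (-0.26), Dnajc4 (-0.29) and Dnajb14 (0.34), which are log2 fold changes (limma adjusted p from 0.421 to 0.454).

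In PS mice 0.703% of all genes were called, 0.579% higher and 0.124% lower. At an unadjusted p under 0.05 there were 3 members (4.11%), against 4.69% of all genes, and edgeR and DESeq2 called 0 members. Bag2 came first with 0.50 (0.09 to 0.92, limma adjusted p = 0.791). Its normalized reads were 805 and 667 in saline and 1045, 976 and 1102 in DEX libraries. Next came Dnajc1 (0.44), Dnajc3 (0.32), Dnajb2 (-0.18) and Bag6 (-0.16), the last a factor for mislocalised proteins.

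In AS mice 0.689% of all genes were called, 0.538% higher and 0.152% lower. At an unadjusted p under 0.05 there were 7 members (9.59%), against 9.36% of all genes, and edgeR and DESeq2 called 0 members. Dnajc15, a J protein of the mitochondrial inner membrane, had -0.36 (-0.61 to -0.11, limma adjusted p = 0.341). Its normalized reads were 3994, 3554 and 4276 in saline and 3203 and 2933 in DEX libraries. Next came Dnajc2 (-0.39), Dnaja1 (-0.29), Dnajb5 (0.44) and Dnajb4 (-0.22), of which Dnajb5 was 0.22 without AS saline library 40. The median of the 73 was -0.11 (-0.01 for all genes), and -0.08 without AS saline library 40. Of the members 56 lay below 0 (76.7%, against 50.9% of all genes).

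Weighting libraries by their spread changed the AS comparison. With limma library weights, an estimate that stopped before its convergence tolerance and gave AS saline library 40 the lowest weight of the 16 (0.184), 6 members were called: Dnajc1 rose by 0.53, and Dnajc2 (-0.31), Dnaja1 (-0.25), Dnajb4 (-0.20), Dnajb11 (-0.24) and Dnajc8 (-0.27) fell (limma adjusted p from 0.0248 to 0.0972). Under the same weights 9.67% of all genes were called, so these 6 of 73 members were no larger a share than the background.

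Whether phenotypes differed in their response was asked of the interaction terms, in each of which limma called 0 members and 0% of all genes. DESeq2 and edgeR called 0 members as well. Members with an unadjusted p under 0.05 numbered 3 when AS was set against control mice, 1 when AS was set against PS mice and 0 for PS and control mice. Their shares were 4.11%, 1.37% and 0%, against 4.02%, 2.90% and 2.10% of all genes. Dnajc15 had the smallest p of any member, with a DEX effect lower in AS than in control mice by 0.49 (interaction -0.49, interval -0.83 to -0.15, limma adjusted p = 0.941).

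The other members nearest to a difference in response were these, as interaction log2 values. For AS against control mice they were Dnajb4 (-0.28), Dnajc2 (-0.42), Dnaja1 (-0.29) and Hspa4l (-0.35). For AS against PS mice they were Dnaja1 (-0.38), Dnajc8 (-0.42), Hspa13 (-0.41), Hspe1 (-0.63) and Dnajb4 (-0.23), with a limma adjusted p of 0.870 for each. Without AS saline library 40 these became -0.29 for Dnaja1, -0.26 for Dnajc8, -0.26 for Hspa13, -0.37 for Hspe1 and -0.19 for Dnajb4. For PS against control mice they were Dnajc6 (-0.26), Hspa4l (-0.33), Hspa14 (0.24), Hspa4 (-0.20) and Bag2 (0.40). The 95% interval lay within 1 log2 unit of 0 for 66, 67 and 62 of the 73 members for these pairs, taken as PS and control, AS and control, and AS and PS.

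**Figure D5:**
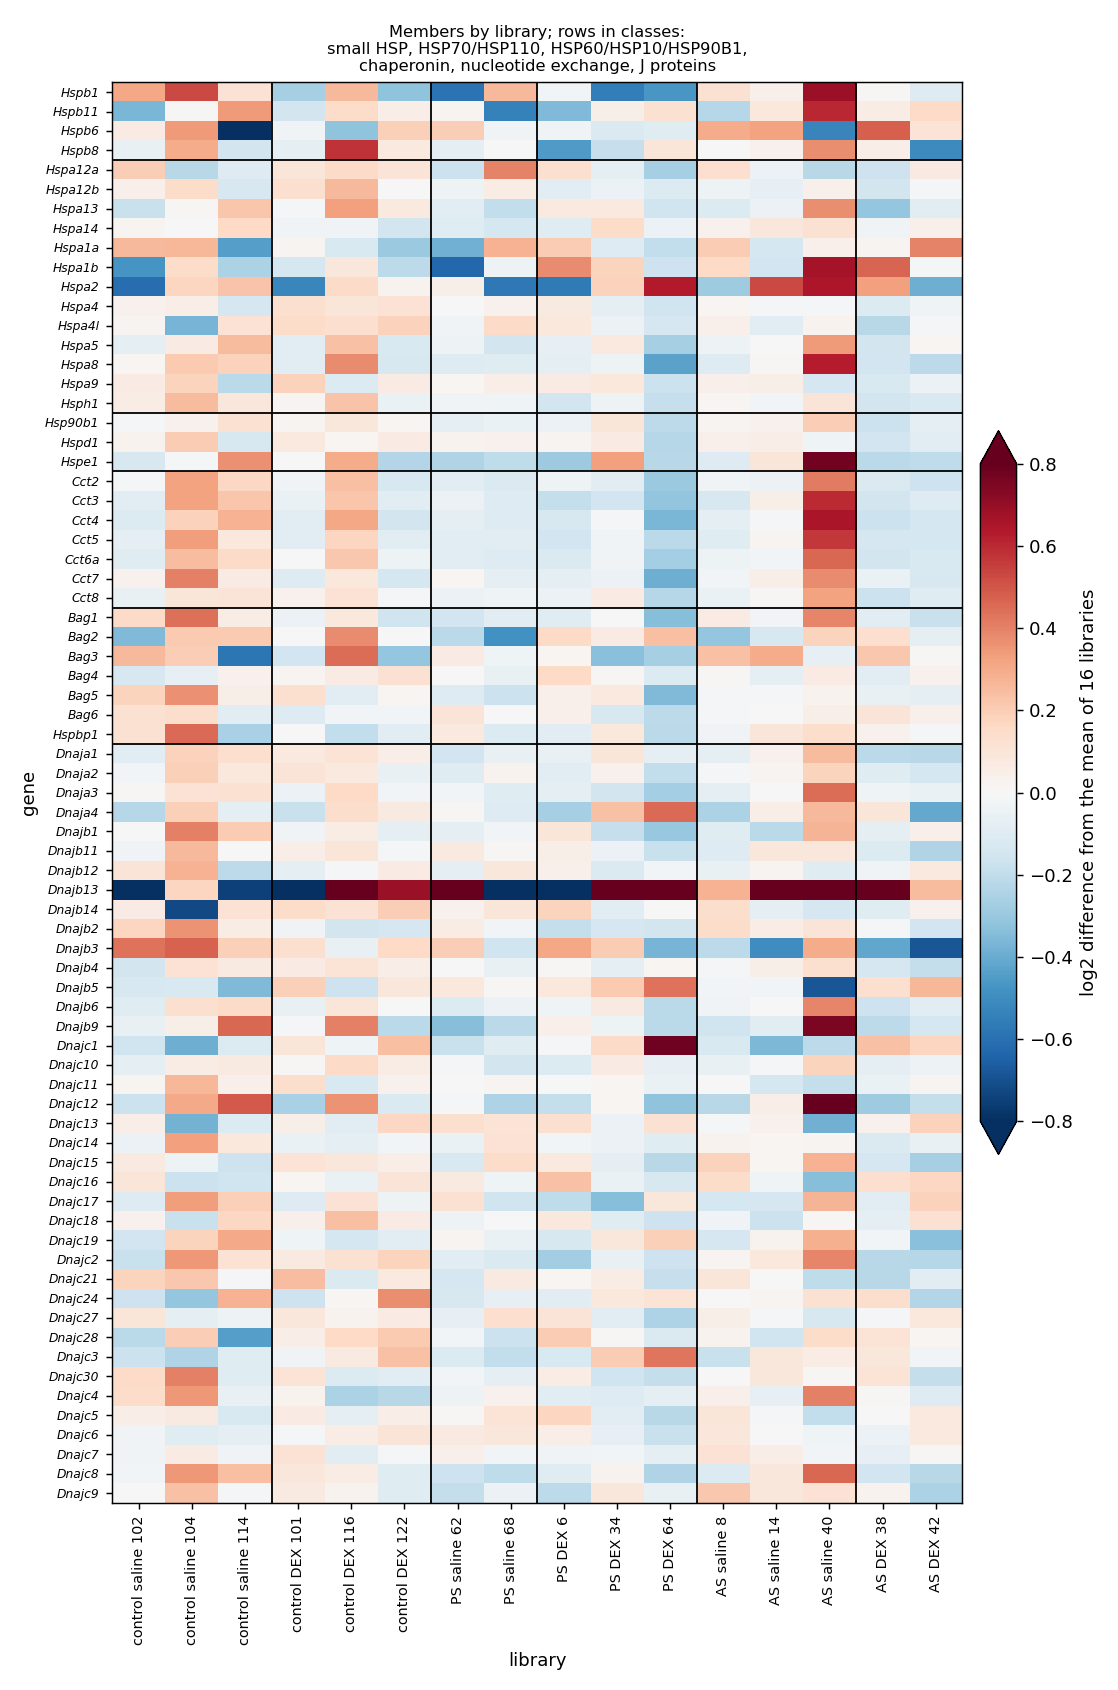
Log2 difference of each member from its mean over the 16 libraries (colors from -0.8 to 0.8, values beyond at the end colors), with libraries in columns by group and genes in rows by class. AS saline library 40 is red over the 7 chaperonin genes, Hspa8 and Hspe1, and Dnajb13 changes most between libraries.

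The effect of stress itself was read under saline. In PS against control mice limma called 0 members and 0% of all genes, and DESeq2 and edgeR called 0 members. Unadjusted p was under 0.05 for 3 members (4.11%), against 7.67% of all genes. The members' median was -0.12, against 0.01 for all genes, with 53 of 73 below 0 (72.6%, against 49.0% of all genes). It was -0.06 with 45 below 0 when con_sal_104 was left out. Bag5 (-0.33), Dnajc8 (-0.37), Bag1 (-0.34), Bag2 (-0.37) and Dnajb2 (-0.18) had the smallest p, with a limma adjusted p of 0.571 for each. Bag5 had 1873, 2135 and 1708 normalized reads in control and 1543 and 1467 in PS libraries.

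The chaperonin genes lay below 0 in PS mice under saline, 7 of 7, with a median of -0.20, and of -0.12 without con_sal_104. Ribosomal protein genes lay below 0 in 79 of 80 cases (median -0.39) and proteasome genes in 35 of 36 (median -0.26), none called, and the part of these families' libraries in the chaperonin values was not tested.

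In AS against control mice under saline limma called 0 members and 0% of all genes, and DESeq2 and edgeR called 0 members. Unadjusted p was under 0.05 for 1 member (1.37%), against 2.39% of all genes. The smallest p belonged to Dnajc11 (-0.22, interval -0.42 to -0.02), a mitochondrial outer membrane protein, then Dnajb3 (-0.50), Dnajc15 (0.20), Bag5 (-0.20) and Dnajb1 (-0.21, and -0.35 without AS saline library 40), with a limma adjusted p of 0.998 for each. The median of 0.01 turned to -0.07 when AS saline library 40 was left out, and the chaperonin genes went from 5 of 7 above 0 (median 0.03) to 7 of 7 below (median -0.15).

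In AS against PS mice under saline limma called 0 members and 0% of all genes, and DESeq2 and edgeR called 0 members. Unadjusted p was under 0.05 for 1 member (1.37%), against 3.41% of all genes. The members lay mostly above 0, 50 of 73 with a median of 0.10, which was 0.05 without AS saline library 40. Below 0 lay 31.5% of members and 49.6% of all genes, and the median of all genes was 0.00. Dnajc8 (0.33), Dnajc9 (0.26), Hspe1 (0.48), Bag1 (0.27) and Dnajc2 (0.26) had the smallest p (limma adjusted p = 0.728 for each). Without that library these effects were 0.18 for Dnajc8, 0.27 for Dnajc9, 0.22 for Hspe1, 0.15 for Bag1 and 0.15 for Dnajc2. The chaperonin median of 0.22 (7 of 7 above 0) was 0.05 without that library.

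Under DEX no member was called between phenotypes either. With so few libraries a group this does not show that the phenotypes were close, which was not tested. In PS against control mice limma called 0 members and 0% of all genes. Unadjusted p was under 0.05 for 1 member (1.37%), against 1.23% of all genes. Of the members 60 of 73 lay below 0 (82.2%, against 50.1% of all genes). Their median was -0.10 (-0.00 for all genes), and -0.05 without PS DEX library 64. Dnajc2 (-0.29), Hsph1 (-0.19), Hspa4 (-0.17), Hspa12b (-0.21) and Hspb8 (-0.37) had the smallest p. In AS against control mice limma called 0 members, against 0.00689% of all genes, with 5 members at an unadjusted p under 0.05, a median of -0.09 (-0.06 without con_dex_116) and 53 below 0. Dnaja1 (-0.30), Dnajb4 (-0.24), Dnajc2 (-0.35), Dnajc15 (-0.28) and Dnajb3 (-0.63) led there. In AS against PS mice limma called 0 members and 0% of all genes. Unadjusted p was under 0.05 for 0 members, against 1.70% of all genes, and the members' median was -0.00. Dnajb3 (-0.60), Dnaja1 (-0.21), Bag6 (0.17), Dnajb4 (-0.14) and Dnaja4 (-0.30) had the smallest p. DESeq2 and edgeR called 0 members in each of these comparisons, which share their control DEX, PS DEX or AS DEX libraries with one another.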

How the data were processed

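The data were 16 RNA-seq libraries of the dorsal raphe nucleus. The study's methods name more libraries of this nucleus, which were not analysed here. Per the study's methods and the submitters' notes, strand-specific polyA libraries (15 PCR cycles) were trimmed with fastp 0.20.1, aligned to GRCm38 (mm10) with HISAT2 2.2.1 and counted with featureCounts (Subread 2.0) on GENCODE vM22. The deposited values were a signal, normalized read counts that the authors had divided by DESeq2 (1.36.0) size factors. Whole reads were recovered from the steps of these values (100% of values whole within 0.01), which gave 38207157 to 62447298 reads a library. The methods state a minimum of 10 reads in each sample, while 973 of the listed genes lay under 10 in some library here. Deposited tables of the authors' own comparisons, with fold changes and p-values, were not used.

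Members were all genes of the table with the symbols described, and 0 columns of values went unused. Values were tested as log2(normalized count + 1) with limma 3.58.1 (R 4.3.3), with 6 group means, eBayes with trend and Benjamini-Hochberg adjustment over 14504 genes, called at an adjusted p under 0.1. Fold changes are on that scale, and intervals are 95% limits from the fit. The p-values measure the spread between mice of 1 cohort. Groups came from the sample titles, and no batch is labelled. The titles do not name the coping strategies: they write dep1 and dep2, which were taken as PS and AS. Genes named were those called, the 5 of smallest p in comparisons without a call, 14 standard members, and the highest and lowest of each class per kb (exon lengths from GENCODE vM21). Members and gene lists were chosen with earlier results of these data known. Alternatives were pseudocounts of 0.1 and 10, a mean of at least 100, TMM scaling, only the groups compared, library weights, 2 marker scores as covariates, edgeR 4.0.16 and DESeq2 1.42.0 on the recovered reads, and each library left out. The fit was tested on simulated counts.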

Additional observations from a re-analysis of the deposited data

How the results depend on the processing

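No paired analysis was possible because the library numbers in the titles are shared by no groups. Of the counts of members called, those for the 12 comparisons other than the averaged DEX effect were 0, and they moved in 3 cases: to 1 (Dnajb2) for DEX in control mice with DESeq2, to 1 when con_sal_114 was left out (range 0 to 1 over libraries left out), and to 6 for DEX in AS mice with library weights, where the share of all genes called rose to 9.67%. For the averaged DEX effect the count of 2 became 1 with the endothelial and mural covariate, and lay between 0 and 3 with 1 library left out. It was 0 without PS saline 62 or AS DEX 42, and 1 without con_sal_104, con_dex_101, con_dex_122, PS saline 68, AS saline 14 or AS DEX 38. The causes were not tested.

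The sign of the averaged effect turned under at least 1 alternative in 23 of the 73 members, none of them called, and in 20 of them with 1 library left out. Among the standard members there were 5, and among the others Dnajb13 had the widest range (-0.88 to 0.61). Hspa1a had -0.006389 with DESeq2, -0.003947 with edgeR and -0.0993 to 0.122 with 1 library left out. Hspa9 had -0.0615 to 0.00386 with 1 library left out, Hspe1 had 0.00317 with library weights, Bag3 had 0.0587 and Dnajc5 0.0321 with the endothelial and mural covariate, and Dnajc5 had -0.0407 to 0.0251 with 1 library left out. All members but Dnajb13 had at least 10 reads in every library, and how far depth limited the least expressed was not tested.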
